A study of Homo sapiens with 17 samples.

Results

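The 10 genes described here are the D-type cyclins CCND1, CCND2 and CCND3, the E-type cyclins CCNE1 and CCNE2, the kinases CDK4 and CDK6, the retinoblastoma gene RB1, and the transcription factors E2F1 and E2F2. They were taken by name from 20037 protein-coding genes of the RefSeq annotation. The rule uses no measured value, but the genes were chosen with earlier results of these data known. A CUT&RUN region was given to a gene when it overlapped the gene's annotated span extended by 25 kb on each side, called its window here. These windows had a median length of 71.2 kb, against 74.1 kb over all protein-coding genes.

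Together these genes control the passage of a cell from the G1 phase into DNA replication. Cyclins D1, D2 and D3 bind and activate the kinases CDK4 and CDK6, which phosphorylate the RB protein and loosen its hold on E2F factors. Free E2F1 and E2F2 activate genes of DNA synthesis and also the cyclin E genes, whose products activate CDK2 and phosphorylate RB further. Thyroid follicular cells respond to mitogens through this route, and thyroid hormone acts on genes through nuclear receptors that bind DNA with or without the hormone.

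The data are peak lists from CUT&RUN, in which an antibody directs a nuclease to a bound protein in nuclei and the released DNA is sequenced. The cells were Nthy-ORI, an established line of normal human thyroid epithelium. As background, lines of this name were immortalised with the SV40 large T antigen, a protein that binds and inactivates RB. The treated cells received 10 nM triiodothyronine (T3), the active thyroid hormone, and the control cells received vehicle (NaOH). Both groups had been deprived of hormone for 24 hours in medium with charcoal-stripped serum, and the library labels give 6 hours of treatment, while the protocol text also names 24 hours. Antibodies were against thyroid hormone receptor beta (TRβ), BRG1, the motor subunit that BAF and PBAF complexes use to move nucleosomes, ARID1A, a subunit found in BAF, and PBRM1, one found in PBAF. Each of the 8 groups had 2 libraries and 1 list of peaks found in both, and 1 IgG library was not analysed here.

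With 1 list per group, differences between T3 and vehicle lists could not be set against a spread between replicates, and nothing in the labels says that the libraries came from separate cultures. Read depth is unknown. The TRβ lists held 7208 regions with T3 and 1412 with vehicle, and the PBRM1 lists held 38140 with T3 and 9115 with vehicle. The BRG1 lists held 55938 and 64299 regions, and the ARID1A lists held 41710 and 49021 regions, with T3 and vehicle in that order. The signal value of a region, which is the authors' own and adds up its values in both libraries, is used only to describe and rank regions within a list. In nuclei pooled from many cells, binding in fewer cells and weaker binding per cell cannot be told apart. The lists hold no RNA levels, so the cell type could not be checked against marker expression, and no result below says whether a gene was transcribed more or less.

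TRβ regions lay in the windows of 7 of the 10 genes with T3, against 4 of 10 with vehicle. The genes with a T3 region were CCND3, CDK4, CDK6, E2F1, E2F2, CCNE1 and CCNE2, and those with a vehicle region were CCND3, CDK4, CDK6 and CCNE1. Among all protein-coding genes the shares were 39.3% with T3 and 11.1% with vehicle. No TRβ region of either list fell in the windows of CCND1, CCND2 or RB1. In all, 13 TRβ T3 regions and 4 TRβ vehicle regions lay in the 10 windows. The irreproducible discovery rate estimates the share of peaks that would not recur between replicates. At a rate of at most 0.01, TRβ regions were left near 5 of the 10 genes with T3 and 2 with vehicle. Windows of 5 kb left 6 genes with T3 and 2 with vehicle. With TRβ lists of equal length the counts were 5 with T3 and 4 with vehicle, a smaller difference. Shares of all genes were not made for these alternatives. A TRβ region found in the T3 list only, meaning that no vehicle region shared as much as 1 bp with it, lay near 6 of the 10 genes (37.7% of all genes). A TRβ region found in the vehicle list only lay near 1 of the 10, CCND3 (6.81% of all genes).

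The remodelers were listed near nearly every gene. All 10 genes had a BRG1 region with T3 and with vehicle, where the shares of all genes were 79.8% and 82.8%. All 10 likewise had an ARID1A region in both conditions, where the shares were 76.0% with T3 and 79.5% with vehicle. PBRM1 regions lay near 10 of 10 genes with T3 (78.1% of all genes) and near 8 of 10 with vehicle (44.0%), the exceptions being RB1 and CCNE2. At a discovery rate of at most 0.01, PBRM1 regions lay near 10 of the 10 with T3 and 4 with vehicle. With PBRM1 lists of equal length the counts were 7 with T3 and 8 with vehicle. Shares of all genes were not made for these alternatives, so 44.0% is no background for them. Most protein-coding genes had BRG1, ARID1A and PBRM1 T3 regions too. The counts for these lists therefore lie where a set of 10 genes has little room to stand apart. CCND3, CDK4, CDK6 and CCNE1 had a region in all 8 lists, which was the case for 6.14% of protein-coding genes.

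The number of regions differed widely between the genes. Summed over the 8 lists, the E2F1 window held 88.7 regions per 100 kb and the CDK4 window 87.9, whereas the CCNE2 window held 10.5 and the RB1 window 4.38. CDK6, whose span of 232 kb is the longest of the 10, had the most regions in number, with 23 BRG1 regions with T3 and 31 with vehicle. RB1, with a span of 178 kb, had 2 BRG1 regions in each condition. The median density of BRG1 regions over the 10 genes was 7.28 per 100 kb with T3 and 8.94 with vehicle, beside medians of 3.01 and 3.49 over all protein-coding genes in the same order of conditions. For PBRM1 the medians over the 10 genes were 4.49 per 100 kb with T3 and 2.01 with vehicle, beside 1.90 and 0 over all genes.

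**Figure D1:**
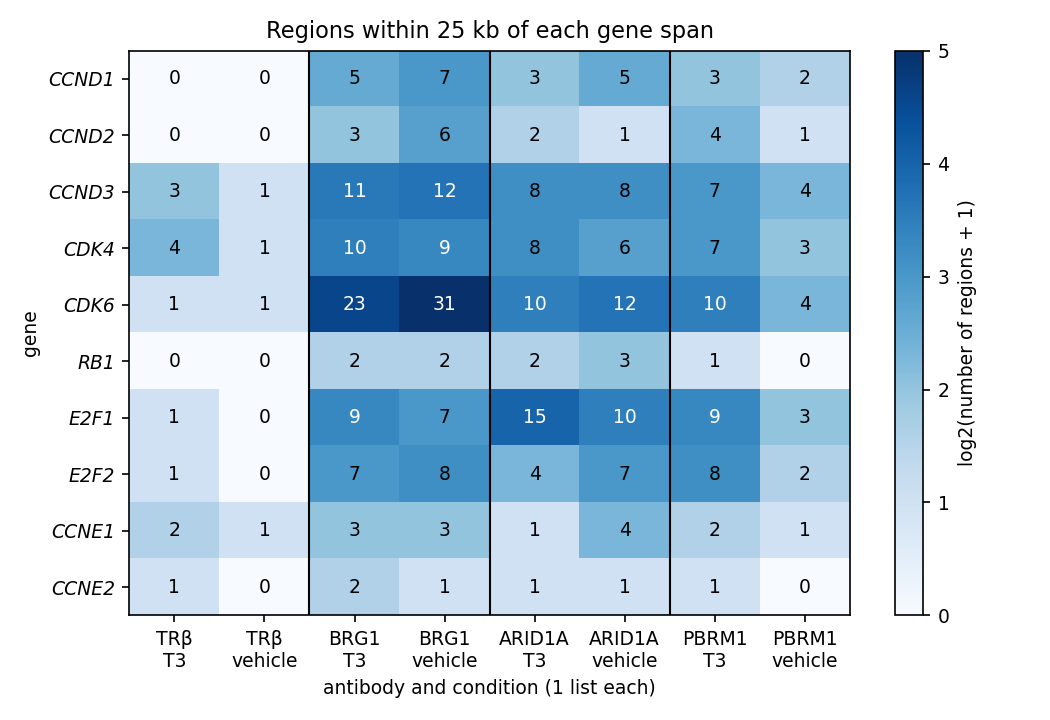
Number of regions of each of the 8 lists (columns, T3 left of vehicle for each antibody) within 25 kb of the span of each of the 10 genes (rows). The colour gives log2 of the number plus 1 and the digits give the number, for example 4 TRβ T3 regions and 1 TRβ vehicle region for CDK4.

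Start sites were examined next, with promoter windows of 300 bases, running from 250 bases before to 50 bases after an annotated start. The RefSeq table (GRCh38.p14, the build called hg38) gave 10 such windows for 7 of the 10 genes, 3 of them for CCND3 and 2 for CDK6, and none for CCND1, CCND2 and CCNE2. With T3, TRβ regions lay over 4 of the 10 windows, against 0 of 10 with vehicle, where the shares of all protein-coding windows were 14.5% and 2.40%. Those 4 were the windows of E2F1, CDK4 and CCNE1 and the middle one of the 3 CCND3 starts. TRβ vehicle regions lay close to 2 other windows, 244 bp from that of the uppermost CCND3 start and 393 bp from that of the downstream CDK6 start. With TRβ lists of equal length, or with TRβ regions whose libraries lay within 1.5-fold of each other, 2 windows were left, those of E2F1 and CDK4. Shares of all windows were not made for these alternatives. The 250 bases before each of these starts are printed because the TRβ T3 regions lay over them. E2F2 is shown beside E2F1 because both hold the same E2F-type motif, although no TRβ region lay over the E2F2 start.

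The sequences are from RefSeq GRCh38.p14 and run 5′ to 3′ on the gene's own strand up to the base before the start. Capitals mark matches to GGGCGG, the GC box bound by Sp1-type factors, on either strand (so also CCGCCC), and to TTGGCGC, an E2F-type site. E2F1 is chr20:33686386-33686635 on the minus strand, and E2F2 is chr1:23531234-23531483 on the minus strand. CDK4 is chr12:57752311-57752560 on the minus strand, CCNE1 is chr19:29811741-29811990 on the plus strand, and the CCND3 start is chr6:41941809-41942058 on the minus strand.
E2F1: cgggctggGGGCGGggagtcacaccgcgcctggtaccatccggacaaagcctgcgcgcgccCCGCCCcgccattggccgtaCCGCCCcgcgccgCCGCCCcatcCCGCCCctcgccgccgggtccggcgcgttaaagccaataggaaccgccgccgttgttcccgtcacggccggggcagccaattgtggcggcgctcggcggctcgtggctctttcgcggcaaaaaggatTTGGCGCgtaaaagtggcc
E2F2: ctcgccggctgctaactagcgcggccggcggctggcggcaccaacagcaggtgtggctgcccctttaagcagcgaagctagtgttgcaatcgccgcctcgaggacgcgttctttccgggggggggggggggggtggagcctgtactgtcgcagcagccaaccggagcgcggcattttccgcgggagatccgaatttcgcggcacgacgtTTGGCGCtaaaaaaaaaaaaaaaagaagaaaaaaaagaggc
CDK4: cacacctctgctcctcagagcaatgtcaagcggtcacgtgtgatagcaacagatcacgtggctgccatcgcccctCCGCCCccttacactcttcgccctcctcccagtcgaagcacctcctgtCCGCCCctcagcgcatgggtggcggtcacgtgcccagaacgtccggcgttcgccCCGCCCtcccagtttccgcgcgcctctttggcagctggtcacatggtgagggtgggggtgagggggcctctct
CCNE1: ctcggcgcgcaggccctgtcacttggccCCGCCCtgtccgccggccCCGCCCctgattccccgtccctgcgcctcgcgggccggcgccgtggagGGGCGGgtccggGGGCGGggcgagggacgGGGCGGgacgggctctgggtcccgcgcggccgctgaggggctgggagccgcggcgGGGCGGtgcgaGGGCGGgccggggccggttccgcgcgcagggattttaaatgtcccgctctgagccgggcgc
CCND3: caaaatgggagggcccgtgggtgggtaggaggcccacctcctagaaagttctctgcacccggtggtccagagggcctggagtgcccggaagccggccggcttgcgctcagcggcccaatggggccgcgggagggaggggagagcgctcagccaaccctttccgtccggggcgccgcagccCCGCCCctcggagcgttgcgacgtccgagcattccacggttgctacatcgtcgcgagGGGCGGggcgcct

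The E2F1 and E2F2 sequences each hold 1 TTGGCGC close to the start, and neither CDK4, CCNE1 nor CCND3 holds it. In the 250 bases before the start, 2 of the 10 windows held TTGGCGC, a motif found on either strand in 3.23% of all protein-coding windows. GGGCGG was found in 6 of the 10 windows and in 53.7% of all windows, with 7 matches before the CCNE1 start, 5 before E2F1, 3 before CDK4 and 2 before the middle CCND3 start. AGGTCA, the half-site to which nuclear receptors such as TRβ bind, was found in 1 of the 10 windows, at an RB1 start deep inside the gene, and in 10.5% of all windows. None of the 4 windows under a TRβ T3 region held AGGTCA in the 250 bases before the start, and the rest of these regions was not searched. A further E2F-type form, TTCGCGC, was in none of the 10 windows and in 2.37% of all windows. Another, spelled TTCCCGC, was likewise in none of the 10 and in 6.96% of all windows. The AP-1 site TGAGTCA was in none of the 10 and in 3.45% of all windows. Every motif was searched on both strands of the 250 bases before each start, so the last 50 bases of each window were not searched. A match describes letters in those 250 bases and is no evidence of binding, and a missing match says nothing of the factor. The share of G and C upstream was 81.2% for CCNE1, 72.4% for E2F1, 71.2% for the middle CCND3 start, 65.6% for CDK4 and 60.8% for E2F2. The median over all windows was 62%, so E2F2 lay below it.

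The same 10 windows were mapped against the remodeler lists. BRG1 regions lay over 8 windows with T3 and 9 with vehicle, where the shares of all windows were 54.3% and 58.9%. ARID1A regions lay over 7 with T3 and 8 with vehicle (46.3% and 41.9%). PBRM1 regions lay over 8 with T3 and 5 with vehicle (53.6% and 18.9%). The RB1 window, far inside the gene and with 36.8% G and C in its 250 upstream bases, had no region of any list. The E2F1 window had a region in 7 of the 8 lists, lacking only TRβ with vehicle.

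Among the D-type cyclins, only CCND3 had TRβ regions, and CCND1 and CCND2 had remodeler regions alone. CCND1 (chr11:69641156-69654474), which encodes a cyclin often amplified in tumours, had regions over the lower end of its span in 5 of the 8 lists: BRG1 and PBRM1 in both conditions and ARID1A with vehicle. The PBRM1 region there was chr11:69640225-69642344 with T3 (signal value 28.7, libraries 12.7 and 16, rank 1109 of 38140). With vehicle it was chr11:69639988-69642506 (22.7, libraries 9.05 and 13.6, rank 1352 of 9115). The highest BRG1 regions near CCND1 also covered this end, with a signal value of 24.7 with T3, from libraries of 5.62 and 19, and 39.9 with vehicle, from libraries of 23.6 and 16.3. The libraries lay further apart for the T3 region than for the vehicle region. The highest ARID1A regions lay elsewhere and each in 1 list only, at 9.98 with T3, 23238 bp below the span, and at 19.5 with vehicle, 2939 bp above it.

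CCND2 (chr12:4273762-4305353) had the fewest remodeler regions of the D-type cyclins. Its lower end was covered by ARID1A and PBRM1 regions with T3 and by BRG1 and PBRM1 regions with vehicle. The highest PBRM1 region began 180 bp inside that end with T3 (signal value 15.7, libraries 5.55 and 10.2) and covered the end with vehicle (16.6, libraries 8.58 and 8). The highest BRG1 region with T3 lay 15056 bp above the span (20.5, libraries 13.7 and 6.86) and with vehicle 2289 bp below it (12.7, libraries 5.94 and 6.79, rank 30648 of 64299). ARID1A regions of 13.9 with T3 and 13.8 with vehicle overlapped each other, 15387 bp with T3 and 15266 bp with vehicle above the span. Of the 3 BRG1 T3 regions near CCND2, 2 were absent from the vehicle list (23.3% of the whole BRG1 T3 list), and of the 6 vehicle regions 5 were absent from the T3 list (29.3% of the whole vehicle list).

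CCND3 (chr6:41934933-42050035) had 3 TRβ T3 regions and 1 TRβ vehicle region, none of them shared between the conditions. The T3 region chr6:41941794-41942318 lay over the middle CCND3 start, with libraries of 6.11 and 3.80 (signal value 9.90, rank 3862 of 7208). The T3 region chr6:41918190-41918747, inside MED20 and BYSL, had libraries of 3.78 and 4.99 (8.77), and chr6:41920815-41921433, over the adjoining starts of MED20 and BYSL, had 4.76 and 3.71 (8.47, rank 6557). Both lay outside CCND3, 16.2 and 13.5 kb from its span, and all 3 T3 regions were in the lower part of the TRβ T3 list. The TRβ vehicle region chr6:42049182-42049881 had libraries of 5.43 and 5.28 (10.7, rank 966 of 1412). It lay 154 bp inside the upper end of CCND3, which is the 5′ end of this minus-strand gene, and 244 bp from the promoter window of the uppermost start. BRG1 with vehicle, ARID1A with T3 and PBRM1 in both conditions were also listed there. Around the middle start, the highest BRG1 region with T3 had a signal value of 29.8, the highest ARID1A region with vehicle 17.4 and the highest PBRM1 region with T3 24.8. That PBRM1 region had no counterpart in the vehicle list. The highest BRG1 and PBRM1 regions with vehicle, at 29.9 and 19.1, instead lay inside the gene, 38620 and 38022 bp from its upper end. The highest ARID1A region with T3, at 15.6, covered the MED20 and BYSL starts.

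CDK4 (chr12:57747727-57752310), the shortest of the 10 genes, had the most TRβ regions, 4 with T3 and 1 with vehicle. The region at the CDK4 start, chr12:57752102-57752850, had libraries of 6.95 and 6.46 (signal value 13.4, rank 1307 of 7208) and was in the T3 list only. BRG1 and ARID1A were listed at this start in both conditions, and PBRM1 with T3 only. A second T3-only region, chr12:57744303-57745115, covered the start of TSPAN31, a neighbouring gene, with libraries of 7.88 and 6.10 (14). A further T3-only region, chr12:57727188-57727893, lay within AGAP2 and its antisense gene, 19.8 kb below CDK4, with libraries of 9.38 and 6.07 (15.5, rank 786). All 3 had values above the median of 10.1 for the TRβ T3 list.

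The other TRβ region near CDK4, over METTL1 and EEF1AKMT3 and 19.5 kb above CDK4, was shared and lay in a site listed by all 8 lists. With T3 it was chr12:57771768-57772799, with libraries of 4.21 and 6.87 (11.1, rank 2602 of 7208). With vehicle it was chr12:57771129-57773330, with libraries of 10.5 and 10.3 (20.8, rank 102 of 1412). Its width was 1032 bp with T3 and 2202 bp with vehicle. The highest remodeler regions in the CDK4 window clustered 8411 to 8860 bp below the gene: BRG1 with vehicle at 36.9, ARID1A with T3 at 30.8 (rank 561 of 41710), and PBRM1 at 23.3 with T3 and 24.5 with vehicle. No TRβ region lay at that site. The highest BRG1 region with T3, at 21.4, and the highest ARID1A region with vehicle, at 16.7, lay instead at the shared TRβ site. Of the 10 BRG1 T3 regions in the CDK4 window, 2 were absent from the vehicle list, close to the 23.3% of the whole list, and of the 9 vehicle regions 0 were absent from the T3 list, beside 29.3%.

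CDK6 (chr7:92604921-92836573), the partner kinase of CDK4, had 1 TRβ region in each condition, and the 2 overlapped. The T3 region chr7:92833141-92833855 had libraries of 7.61 and 3.29 (signal value 10.9, rank 2775 of 7208), the widest gap between libraries of the 13 TRβ T3 regions. The vehicle region chr7:92832729-92833517 had libraries of 5.40 and 5.38 (10.8, rank 953 of 1412). This site, also listed by all 8 lists, lay inside CDK6 and 55 bp with T3, and 393 bp with vehicle, from the promoter window of the downstream of its 2 annotated starts. It was embedded in a wide domain of BRG1 and PBRM1 that reached the upstream start. PBRM1 with T3 covered 5234 bp there in a single region (49.3, libraries 27.5 and 21.8), rank 58 of 38140. With vehicle the same stretch was split in the PBRM1 list into 2 regions, each with a signal value of 24.3 and widths of 2618 and 2909 bp. BRG1 with vehicle covered 5913 bp there (53.5, rank 394 of 64299), and with T3 it was split into regions of 34.9 and 20.5. The highest BRG1 region with T3, at 45.5, lay 91989 bp from the upper end of the gene, and its highest vehicle counterpart there had 42.0. The highest ARID1A region was T3-only at 20.4, 69784 bp from the upper end, whereas with vehicle it was at the TRβ site, at 16.3. Of the 10 PBRM1 T3 regions near CDK6, 8 had no vehicle counterpart, a share close to that of the whole list, 79.2%.

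RB1 (chr13:48303751-48481890), which encodes the pocket protein that holds E2F factors inactive, had the fewest regions for its length and no TRβ region. Its start, at the lower end of its span, was covered by 5 lists: BRG1 and ARID1A in both conditions and PBRM1 with T3. The BRG1 region there was chr13:48303067-48305642 with T3 (28.7, libraries 16.2 and 12.5, rank 3148 of 55938). With vehicle it was chr13:48302631-48304378 (16.3, libraries 11.2 and 5.12, rank 20069 of 64299). The ARID1A region had a signal value of 18.5 with T3, from libraries of 8.12 and 10.3, and 11.1 with vehicle, from libraries of 4.22 and 6.87. The PBRM1 region chr13:48303330-48304805 was T3-only, with a middling value in its list (12.2, rank 18857 of 38140). It was the single PBRM1 region of the RB1 window. Of the 5 sites in the RB1 window, 3 were in 1 list only.

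**Figure D2:**
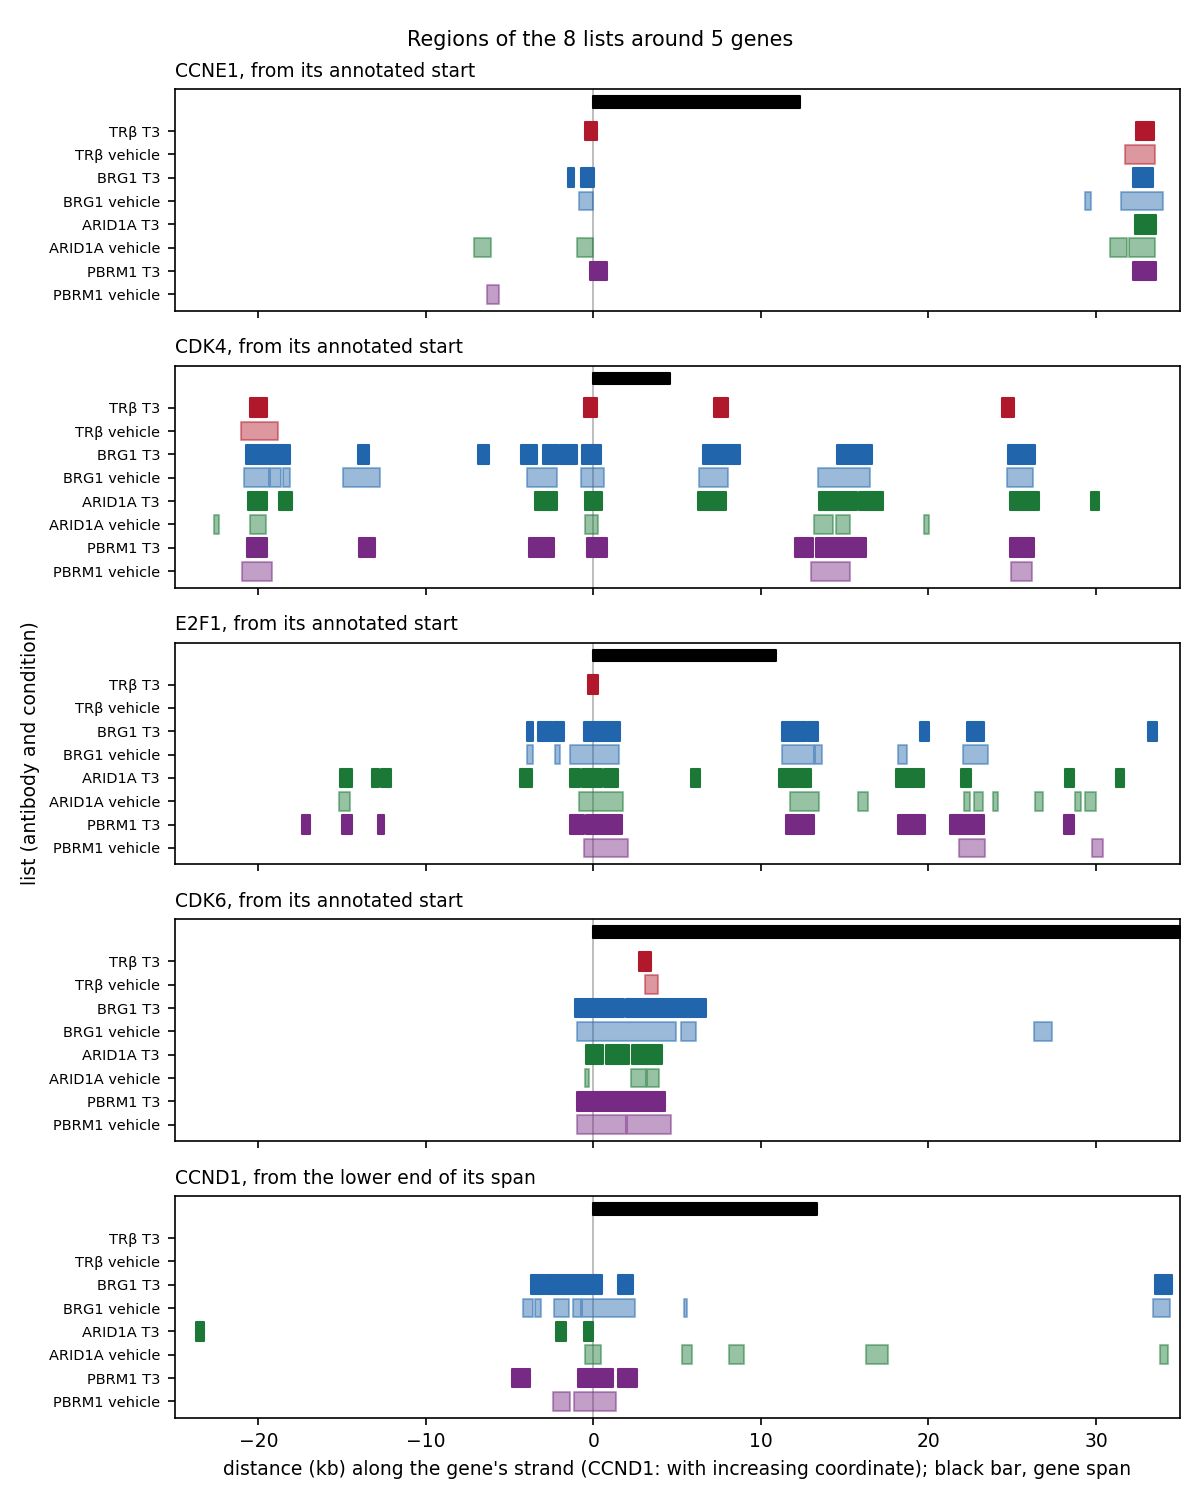
Regions of the 8 lists (T3 in full colour above vehicle in light colour for each antibody) around CCNE1, CDK4, E2F1, CDK6 and CCND1, by distance in kb. Zero is the annotated start, or for CCND1 the lower end of its span, and the black bar is the gene. TRβ T3 regions sit at the starts of CCNE1, CDK4 and E2F1, the TRβ regions of CDK6 lie inside the gene in both conditions, and CCND1 has no TRβ region.

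E2F1 (chr20:33675477-33686385) had 1 TRβ region, at its start and with T3 only. This region, chr20:33686121-33686682, had libraries of 6.96 and 9.32 (signal value 16.3) and ranked 630 of 7208, within the first 8.74% of the list. It covers the whole E2F1 sequence printed above, including the TTGGCGC and the 5 GC boxes. BRG1, ARID1A and PBRM1 were listed there in both conditions, so 7 of the 8 lists covered the E2F1 start. The BRG1 region had a signal value of 33.6 with T3, from libraries of 12.3 and 21.3, and 35.5 with vehicle, from libraries of 15.2 and 20.3. The ARID1A region had 18.5 with T3, from libraries of 8.59 and 9.88, and 26.3 with vehicle, from 8.20 and 18.1, the vehicle value coming mostly from 1 library. The highest PBRM1 region with T3, at 29.2, lay 10368 bp below the gene, with 28.5 at the start itself. With vehicle the highest was at the start, chr20:33684291-33686961, at 30.2 (rank 446 of 9115). E2F1 also had 15 ARID1A regions with T3, the most of the 10 genes, and 10 with vehicle, where CDK6 had 12.

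E2F2 (chr1:23505212-23531233) had 1 TRβ T3 region in its window, and that region was not at E2F2. It was chr1:23483625-23484864, over the start of the neighbouring gene ASAP3 and 20.3 kb from E2F2, with libraries of 7.73 and 7.75 (signal value 15.5, rank 779 of 7208). It lay 46.3 kb from the promoter window of E2F2. The highest ARID1A and PBRM1 regions with T3, at 18.3 and 23.6, were also at ASAP3. At the E2F2 start itself BRG1, ARID1A and PBRM1 were listed over the promoter window in both conditions. The highest BRG1 region with T3 was there (38.1, libraries 23 and 15.1), and so were the highest ARID1A and PBRM1 regions with vehicle, at 19.8 and 17.9. The BRG1 vehicle region chr1:23554136-23562744 had the highest signal value of any remodeler region in the 10 windows, 106 over 8609 bp, from libraries of 51.2 and 54.5. It ranked 5 of 64299 and lay 22.9 kb above E2F2, on the side of its start. Which other genes lie under or near it was not looked up, so it cannot be assigned to E2F2. With T3 the same stretch was listed as 2 regions, of 7680 bp with a signal value of 37.8 (libraries 26.5 and 11.3, rank 1107 of 55938) and of 1098 bp with 20.9. No TRβ region lay there.

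CCNE1 (chr19:29811991-29824312), a cyclin gene that E2F factors are known to activate, had 2 TRβ T3 regions and 1 TRβ vehicle region. The region at the CCNE1 start, chr19:29811467-29812182, was T3-only, with libraries of 7 and 4.25 (signal value 11.3, rank 2470 of 7208). BRG1 was listed there in both conditions, ARID1A with vehicle and PBRM1 with T3. The PBRM1 T3 region, at 12.2 (libraries 6.59 and 5.65), had no vehicle counterpart. The shared TRβ region lay 20040 bp above the gene, over no annotated gene, at chr19:29844352-29845451 with T3 and chr19:29843740-29845492 with vehicle. Its libraries were 10.1 and 6.96 with T3 (17.1, rank 539 of 7208) and 10.5 and 10.1 with vehicle (20.7, rank 104 of 1412). This was the highest of the 13 TRβ T3 regions, and 7 of the 8 lists covered the site, PBRM1 with vehicle being the exception. The highest BRG1 regions, at 16.4 with T3 and 31.1 with vehicle, and the highest ARID1A regions, at 18.2 and 16.2 in the same order, were also at this site. The highest PBRM1 region with vehicle, at 11.9, lay 5638 bp below the gene in that list only.

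CCNE2 (chr8:94880224-94896693), the other E-type cyclin gene, had a single site in its window. The TRβ region was T3-only, chr8:94895066-94896253, with libraries of 6.25 and 9.78 (signal value 16, rank 666 of 7208), and it overlapped both CCNE2 and an end of NDUFAF6. BRG1 and ARID1A were listed there in both conditions and PBRM1 with T3, as a T3-only region of 2901 bp at 26.0 (libraries 10.7 and 15.4, rank 1774 of 38140). The highest BRG1 region had a signal value of 23.5 with T3, from libraries of 14 and 9.50, and 17.9 with vehicle, from 10.3 and 7.51. The highest ARID1A region had 14.2 with T3 and 14.6 with vehicle. The upper end of CCNE2 was covered by BRG1 in both conditions and by PBRM1 with T3, and the TRβ region stopped short of it.

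Over the 7 genes, the 13 TRβ T3 regions had signal values from 8.47 near CCND3 to 17.1 near CCNE1, with a median of 13.4, beside a list median of 10.1. At an irreproducible discovery rate of at most 0.01 there were 9 of the 13 T3 regions (47.4% of the list) and 2 of the 4 vehicle regions (14.2% of the list). The libraries of a region lay within 1.5-fold of each other for 7 of the 13 T3 regions (63.9% of the list). The 6 T3 regions that overlapped the span of CCND3, CDK4, CDK6, E2F1, CCNE1 or CCNE2 were the ones at or in these genes. The other 7 lay 2.61 to 20.3 kb outside, 4 of them over an end of MED20, TSPAN31, METTL1 or ASAP3. In all, 8 of the 13 lay across the start or end of some protein-coding or long noncoding gene, against 33.4% of the TRβ T3 list. The list values cover regions at any distance from a gene, whereas the regions described here all lay within 25 kb of one.

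**Figure D3:**
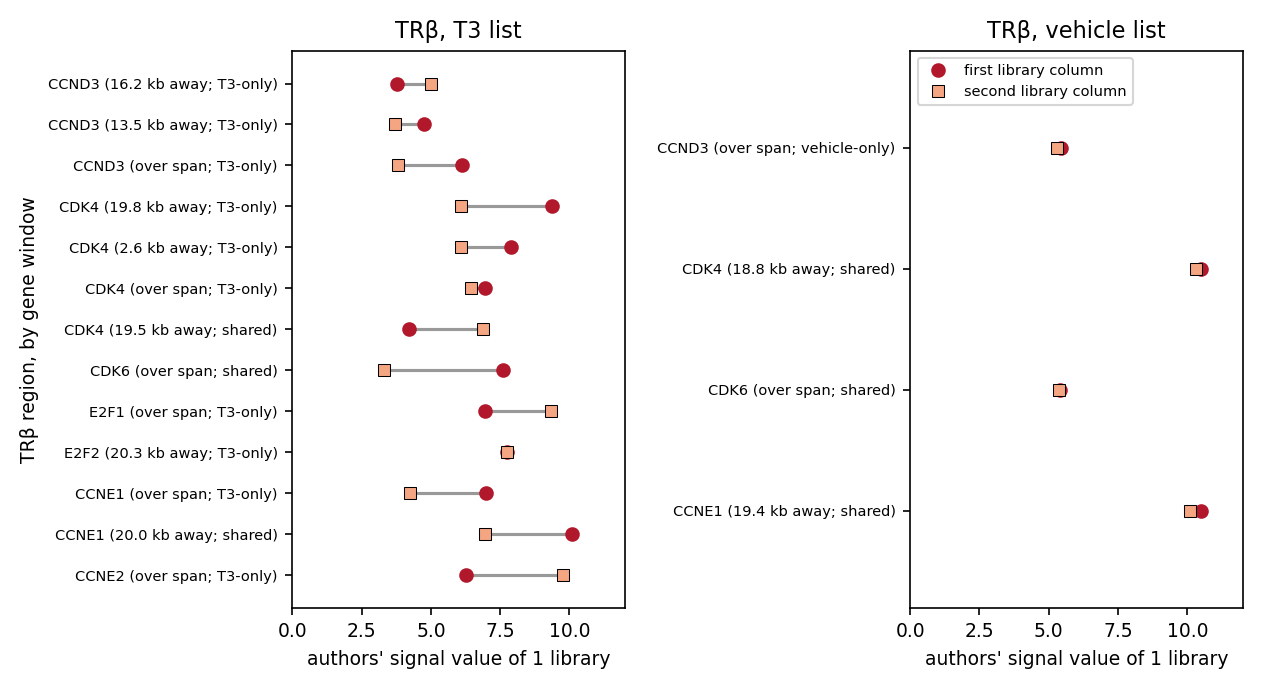
Signal value in each of the 2 library columns (circles, the first; squares, the second) for the 13 TRβ T3 regions (left) and the 4 TRβ vehicle regions (right) in the 10 windows, with distance from the gene span and class. The columns of a T3 region differ by up to 2.32-fold, at CDK6, and those of a vehicle region by at most 1.04-fold, at CCNE1.

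The remodelers covered most of these TRβ regions. BRG1 T3 regions overlapped 13 of the 13 TRβ T3 regions (95% interval 75.3 to 100%), against 68.2% of the TRβ T3 list, and BRG1 vehicle regions also overlapped 13, against 70.5%. ARID1A T3 regions overlapped 11 (66.3% of the list) and ARID1A vehicle regions 10 (65.0%). The exceptions for ARID1A with T3 were the CCND3 region inside MED20 and BYSL and the CCNE1 start. PBRM1 T3 regions overlapped 11 (62.4% of the list) and PBRM1 vehicle regions 5 (23.0%). With lists of equal length, PBRM1 T3 regions overlapped 3 of 7, or 42.9%. The exceptions for PBRM1 with T3 were the same CCND3 region and the TSPAN31 start near CDK4. All 3 remodelers with T3 overlapped 10 of the 13, against 53.7%, and PBRM1 was listed with T3 but not with vehicle at 6 of the 13, against 40.8%. Those 6 were the middle CCND3 start, the CDK4 start, ASAP3 near E2F2, both CCNE1 regions and the CCNE2 region. Where at least 50% of each region had to overlap, the shares of the 13 covered with T3 were 38.5% for BRG1, 53.8% for ARID1A and 30.8% for PBRM1. Whole-list shares were not made for that rule or for lists of equal length, so the list shares above are no background for them. Intervals are exact binomial (Clopper-Pearson) and cover counting error across regions only. The list shares cover TRβ regions at any distance from a gene, whereas the 13 all lay within 25 kb of one. No share for other TRβ regions near genes was made.

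The share of regions listed in a single condition was compared with that of each whole list, which holds regions at any distance from a gene. For TRβ, 10 of the 13 T3 regions, or 76.9% (95% interval 46.2 to 95.0%), were T3-only, beside 93.0% of the list. Of the 4 vehicle regions 1, or 25% (0.631 to 80.6%), was vehicle-only, beside 67.1%. That share rests on 4 regions and was 75% (3 of 4) with lists of equal length, with a reciprocal overlap of 50%, or with TRβ regions whose libraries lay within 1.5-fold. For PBRM1, 36 of 52 T3 regions, or 69.2% (54.9 to 81.3%), were T3-only, beside 79.2%, and 7 of 20 vehicle regions, or 35% (15.4 to 59.2%), were vehicle-only, beside 24.9%. The T3-only PBRM1 regions included those at the starts of CDK4, RB1 and CCNE1 and over CCNE2. For BRG1 the shares were 24% of 75 T3 regions and 24.4% of 86 vehicle regions, beside 23.3% and 29.3% of the lists. For ARID1A they were 40.7% of 54 T3 regions and 43.9% of 57 vehicle regions, beside 46.5% and 51.6%. The TRβ and PBRM1 T3 lists are the longer ones of their pairs. Whole-list shares were made only for the lists as deposited, with an overlap of 1 bp. With lists of equal length, T3-only PBRM1 regions were 53.8% (7 of 13) and vehicle-only ones 70% (14 of 20). The order of the PBRM1 conditions thus turned round, on few regions.

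**Figure D4:**
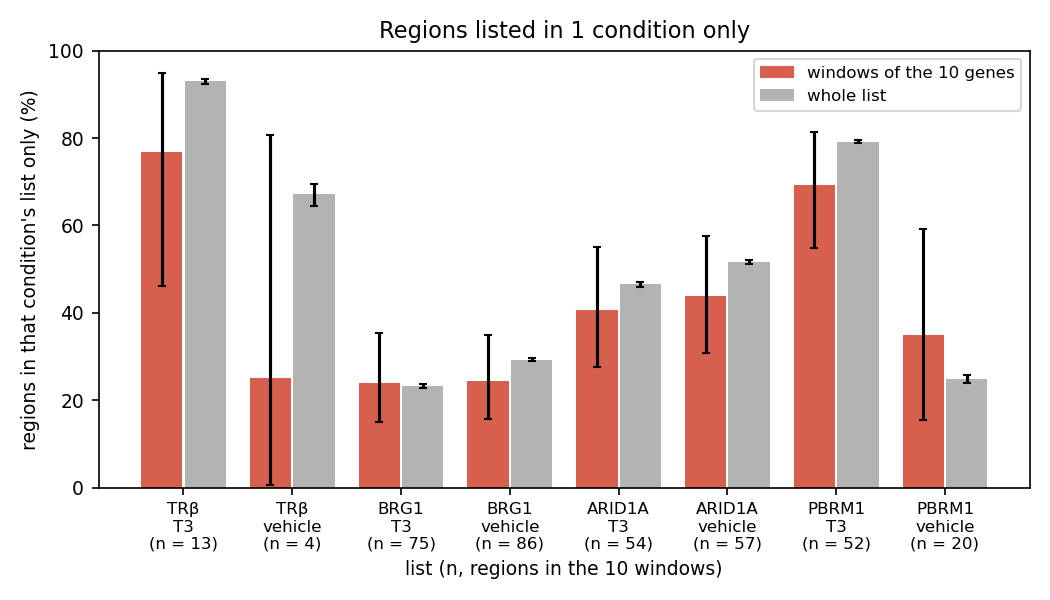
Percentage of the regions of each list that had no overlapping region in the other condition's list, for the windows of the 10 genes (red) and for the whole list (grey), T3 left of vehicle. Error bars are exact 95% binomial intervals over regions, and n is the number of regions in the 10 windows; the TRβ vehicle bar rests on 4 regions.

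Merging overlapping regions of the 8 lists gave 116 sites in the 10 windows, of 101830 sites in all, at any distance from a gene. All 8 lists met at 2 of the 116, the CDK4 site at METTL1 and the CDK6 site, against 0.180% of all sites. A TRβ list was present at 14 of the 116, or 12.1%, beside 7.33% of all sites. BRG1 in both conditions was present at 51, or 44%, beside 34.2%, and 38, or 32.8%, were listed by BRG1 lists only, beside 30.4%. PBRM1 with T3 and not with vehicle was present at 30, or 25.9%, beside 24.3%. A single list named 52 of the 116, or 44.8%, beside 53.5%. CDK6 supplied 33 of the sites, E2F1 20 and CCND3 16, while CCNE2 supplied 1. The CCND1 site with the most lists, at the lower end of its span, was named by 6 lists, and the RB1 start by 5.

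Other genes of the cell cycle, and other cyclin and CDK genes of any role, were counted in the same way. Of 20 replication genes known to be controlled by E2F, 13 had a TRβ region with T3 and 0 with vehicle. The highest T3 regions of that list were near PCNA, the sliding clamp of DNA polymerase (14.2, libraries 4.25 and 9.99), the licensing factor gene CDT1 (14.1, libraries 7.60 and 6.51) and ORC1, of the origin recognition complex (13.3, libraries 7.94 and 5.32). Of 10 further E2F, DP and pocket protein genes, 3 had a TRβ region with T3 and 0 with vehicle. These were E2F4 (13.5, libraries 7.62 and 5.89), E2F3 (10.6, libraries 5.94 and 4.65) and RBL1, which encodes the RB relative p107 (8.63, libraries 4.99 and 3.64).

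Of 17 other cyclin and CDK genes, 7 had a TRβ region with T3 and 1 with vehicle. This list holds cyclins and CDKs of any role, so its count is not one of the cell cycle alone. The highest T3 regions were near CDK9 (15.9, shared with the vehicle list), CDK13 (14.9) and CDK2 (14.3, libraries 9.59 and 4.72), the kinase that cyclin E activates. Of 12 genes of mitosis, 6 had a TRβ region with T3 and 4 with vehicle, with the highest T3 regions near CDC20 (17.1), MYBL2 (14.9, shared with the vehicle list) and AURKA (14.7). The shares of all protein-coding genes, 39.3% with T3 and 11.1% with vehicle, are the background for each of these counts as for the 10 genes. None of these lists was tested.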

How the data were processed

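The 8 groups of 2 CUT&RUN libraries, from 4 antibodies with T3 or vehicle, were used through 1 deposited peak list each. Per the submitters' processing notes, the tools were MACS2, Bowtie2, Trim Galore and CASAVA 1.7, on hg38. The sources used here give neither their settings nor any use of the IgG library in peak calling. The deposited lists have the layout written by the IDR method: a signal value per peak, which is the sum of the deposited signal values of its 2 libraries, and the −log10 of the irreproducible discovery rate, which in the deposited lists reaches a rate of 0.05. Which column belongs to which numbered library is not stated, and 24 columns of summit positions were not used. No p-value is given, because 1 list stands for each group.

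The 10 genes and the lists of other cell cycle, cyclin and CDK genes were chosen with earlier results of these data known. All 10 genes are named, with each TRβ region in their windows and the highest region of each remodeler per gene and condition, and up to 3 genes with the highest TRβ T3 signal value per other list. Gene spans came from RefSeq GRCh38.p14, the build of the lists. Regions sharing at least 1 bp were counted as overlapping, and counting was checked on 4000 made-up intervals, with 0 wrong counts. Whether a region is exonic or intronic was not analysed here. Alternatives were a rate of at most 0.01, windows of 5 and 100 kb, a reciprocal overlap of 50%, lists of equal length, the interval of either library and, chosen after seeing the data, TRβ regions whose libraries lie within 1.5-fold, together with the alternatives for promoter windows. Python 3.11.15, numpy 2.4.6, pandas 2.3.3, scipy 1.17.1 and matplotlib 3.10.9 were used.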

Additional observations from a re-analysis of the deposited data

How the results depend on the processing

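The number of genes with a TRβ T3 region stayed between 5 and 7 of 10 under every alternative run. With lists of equal length, genes with a TRβ region were 5 with T3 and 4 with vehicle. For PBRM1 they were 7 with T3 and 8 with vehicle. Of 137 values under alternatives, for 20 results, 18 moved by over 1.5 times (counts) or out of the 95% binomial interval (shares), and 119 did not. That interval is wide where regions are few: the vehicle-only share of TRβ vehicle regions was 75% (3 of 4) with a reciprocal overlap of 50%, lists of equal length or libraries within 1.5-fold, and 50% (1 of 2) with a window of 5 kb, against 25% reported. Likewise vehicle-only PBRM1 regions were 20% (1 of 5) at a rate of at most 0.01, against 35%. At a rate of at most 0.01, genes with a region were 2 for TRβ with vehicle and 4 for PBRM1 with vehicle, vehicle-only TRβ regions were 0% (of 2 regions), and T3-only PBRM1 regions were 87.5%. A window of 5 kb left 2 genes with a TRβ vehicle region, and 100 kb moved no value beyond these bounds. A reciprocal overlap of 50% put one-condition BRG1 regions at 48% with T3 and 54.7% with vehicle, and ARID1A regions at 72.2% and 73.7%. It put TRβ T3 regions covered by T3 regions of BRG1, ARID1A and PBRM1 at 38.5%, 53.8% and 30.8%. With lists of equal length, T3-only and vehicle-only PBRM1 regions were 53.8% (7 of 13) and 70% (14 of 20). The order of the PBRM1 conditions thus turned round, on few regions. TRβ T3 regions were then covered by ARID1A in 100% and by PBRM1 in 42.9% of 7, and TRβ lay over 2 promoter windows. It also lay over 2 (E2F1 and CDK4) where the libraries of a TRβ region had to lie within 1.5-fold. The interval of either library moved no value beyond these bounds. The cause of these shifts was not tested. No paired analysis was possible because each group has 1 list, made from both of its libraries, and no list without either library could be made. The limits are 1 list per group, an unknown depth, 4 TRβ vehicle regions in all, and windows that also hold neighbouring genes.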

Other observations

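The 2 library values of a region lay closer together in the vehicle lists of TRβ and PBRM1 than in the other lists. For the 4 TRβ vehicle regions near CCND3, CDK4, CDK6 and CCNE1, the larger value was at most 1.04 times the smaller, whereas for the 13 TRβ T3 regions the ratio had a median of 1.45 and reached 2.32 at CDK6. Over the whole lists the median ratio was 1.33 with T3 and 1.05 with vehicle for TRβ, and the values lay within 1.5-fold for 63.9% of T3 regions and 99.9% of vehicle regions. For PBRM1 the median ratio in the windows of the 10 genes was 1.31 with T3 and 1.24 with vehicle, and over the whole lists it was 1.40 and 1.13 in the same order. For BRG1 and ARID1A the medians in the windows lay between 1.39 and 1.44 in both conditions. Its part in the differences between T3 and vehicle lists was not tested.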
